A study of Mus musculus with 6 samples.

Results

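The integrin and laminin genes were taken by symbol from the expression table of mouse colon organoids, as every integrin α gene (Itga), integrin β gene (Itgb) and laminin α, β or γ chain gene (Lama, Lamb, Lamc). The rule found 37 genes among 25067 rows, namely 18 integrin α, 8 integrin β and 11 laminin genes. The table held 6 RNA sequencing libraries of colon organoids from C57BL/6 mice that were 8 weeks old, 3 libraries treated with 4-OH-Tamoxifen (4-OHT) and 3 with Vehicle (Ethanol), each for 3 days. All 6 libraries carried the same label for the genotype, Prkcif/fPrkczf/f;Villin-CreERT2, so the vehicle libraries also held the floxed alleles of Prkci and Prkcz, the genes of the atypical protein kinases C, and the Cre transgene. The labels call the vehicle libraries WT (wild type) and the 4-OHT libraries Prkci/Prkz-DKO, a double knockout. Villin is an epithelial promoter, and 4-OHT releases the CreERT2 recombinase into the nucleus. No library without the Cre transgene or without floxed alleles was treated with 4-OHT, so loss of the kinases, Cre activity and 4-OHT itself cannot be told apart. The medium held WNT3A, R-spondin 1, Noggin, EGF and B27 in Advanced DMEM/F12. The labels do not say whether replicates were separate cultures or mice, so p-values measure the spread between these libraries, which may be technical.

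Laminins are the trimeric proteins, each of an α, a β and a γ chain, on which an epithelium builds its basement membrane. Trimers with the α3 and β3 chains (genes Lama3 and Lamb3) anchor epithelia and are laid down by migrating epithelial cells, whereas trimers with α5, β1 or β2 and γ1 are the general laminins of mature intestinal basement membrane. Integrins are receptors of 1 α and 1 β subunit, and the pair decides the ligand. In epithelia, α6β4 binds laminin at hemidesmosomes and links to keratin filaments, α3β1 and α6β1 bind laminin at actin-linked adhesions, α2β1 binds collagen, and the αv receptors and α5β1 bind proteins such as fibronectin that carry the RGD motif.

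Recovered read totals ran from 15804709 to 26957612 a library. Values below are normalized counts, that is reads divided by 1 size factor for each library, and errors are SD over 3 libraries a group. Prkcz stood at 879.8, 904 and 954 in vehicle replicates 1 to 3 and 287, 265 and 290.3 in 4-OHT replicates 1 to 3 (log2 fold change -1.70, SE 0.08, adjusted p = 3.17e-12). Prkci stood at 3603, 3526 and 3429.7 with vehicle and 2869, 3105 and 3089 with 4-OHT (log2 fold change -0.22, SE 0.05, adjusted p = 8.13e-04). Both targeted genes were therefore lower in every 4-OHT library, Prkci by a small margin, and each is 1 value a gene, so exons inside the floxed segments could not be told from the rest. The 10 epithelial markers summed to 413098 to 423808 with vehicle and 546235 to 594009 with 4-OHT. The keratin genes Krt8, Krt18 and Krt19 made up most of each sum and most of the rise. In the test described below 7 of the 10 rose, Epcam and Cdh1 among them, and Krt20 did not pass. Cdx2 fell, from 6664, 6577 and 6689 with vehicle to 5334, 5804 and 5502 with 4-OHT. Elf3 also fell, from 12236, 12732 and 11966 to 9911, 10907 and 10140. The 11 leukocyte markers summed to 213 to 236 and 173 to 211, most of it Cd68, and Ptprc, which marks all leukocytes, had at most 4 reads in any library. 4-OHT replicates 2 and 3 stood apart from the other 4 libraries in markers of other cell types. The 9 Paneth cell and ileal markers summed to 202, 345 and 255 with vehicle and 235, 988 and 941 with 4-OHT. Lyz1 and Itln1 made up nearly all of it in the vehicle libraries and 4-OHT replicate 1. The other markers of this list had at most 6 reads in those libraries. Defa30 had 0 reads in each of them and 78 and 117 in 4-OHT replicates 2 and 3. Fabp6 had 2, 3 and 2 reads with vehicle and 4, 120 and 34 with 4-OHT. The 5 plasma cell markers summed to 0 in every vehicle library and to 1.03, 211 and 71.7 with 4-OHT, with Mzb1 at 0 reads throughout. The same libraries were highest in smooth muscle markers, and 4-OHT replicate 3 in fibroblast markers. The 7 smooth muscle markers summed to 4.66, 7.80 and 15.7 and 14.5, 68.4 and 173, and the 10 fibroblast markers to 76.5, 55.3 and 44.8 and 50.6, 52.9 and 253. The 7 endothelial markers found summed to 47.2 to 57.5 and 40.3 to 62.2. The part of these markers in the results was not tested, and member calls that were lost without both libraries are given with the value so obtained.

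Of the 37 genes, 23 had a mean of at least 10 normalized counts and were tested, and 14 lay below that level. With 4-OHT, 13 of the 23 rose and 4 fell (limma on log2(normalized count + 1), Benjamini-Hochberg adjusted p under 0.05 over 13210 rows). Over all rows tested, 43.6% passed, 22.7% upward and 21% downward, against 73.9% of the 23 members. In 16 of the 23 the 3 values of a group all lay to the same side of the other group's, 12 higher and 4 lower with 4-OHT, beside 52.1% of all rows tested, 26.8% higher and 25.3% lower. The median log2 fold change was 0.29 over the members tested and -0.01 over all rows tested. Leaving out vehicle replicate 3 lowered the members' median to 0.18. Quantile normalization lowered it to 0.19, with the median over all rows tested still at -0.01. Without 4-OHT replicates 2 and 3, 10 members rose and 1 fell, since Itgav, Itga5, Itgb8, Lama5, Lamc1 and Itgb5 no longer passed. A normalized count is relative to the whole library, and in bulk RNA fewer cells of a type and less RNA per cell cannot be told apart.

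**Figure D1:**
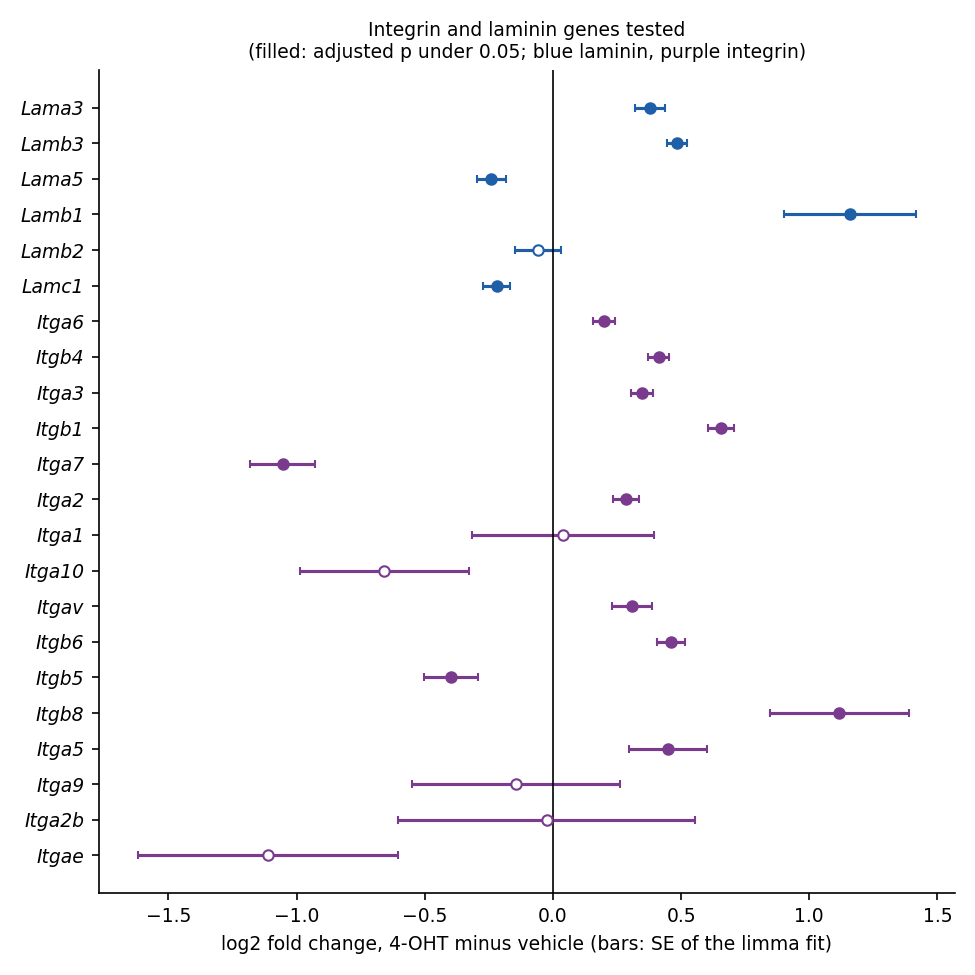
Log2 fold change (4-OHT over vehicle, on the log2(normalized count + 1) scale) with its SE for 22 of the integrin and laminin genes tested, in blue for laminins and purple for integrins, with filled points for an adjusted p under 0.05 and open points for the rest. Itga7 lies farthest below 0 among those that passed, at -1.05, and Lamb1 farthest above it, at 1.16.

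Lama3 and Lamb3, which encode chains that assemble in the same trimer, both rose. Lamb3, the β3 chain, stood at 10201, 9961 and 10184 in vehicle replicates 1 to 3 and 14152, 14227 and 14045 in 4-OHT replicates 1 to 3. It went from 10115 ± 134 to 14141 ± 91.4 (log2 fold change 0.48, SE 0.04, adjusted p = 1.03e-08). The 3 vehicle values lay close together and well below all 3 values with 4-OHT. Lama3, the α3 chain, stood at 9297, 9249 and 7656 with vehicle and 10922, 11339.8 and 11709 with 4-OHT, with a wider spread among the vehicle libraries than Lamb3. Its difference was smaller (0.38, SE 0.06, adjusted p = 2.93e-05), and the groups still did not overlap. Lama3 shares exon positions with the annotated gene Gm29200 on the opposite strand, and whether counting used strand is not given in the sources used here.

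Of the chains of the general epithelial laminins, Lama5 and Lamc1 fell, Lamb2 did not pass and Lamb1 rose from a low level. Lama5, the α5 chain, stood at 7223, 6284 and 6483 with vehicle and 6096, 5269.8 and 5562 with 4-OHT (log2 fold change -0.24, SE 0.06, adjusted p = 0.0018). Lamc1, the γ1 chain shared by most laminins, stood at 2503, 2501 and 2246 with vehicle and 2117, 1996 and 2109 with 4-OHT (-0.22, SE 0.05, adjusted p = 0.0024). In both genes all 3 values with 4-OHT were below the lowest vehicle value, by a small margin in Lama5. With 4-OHT replicates 2 and 3 left out, the differences were -0.13 for Lama5 (adjusted p = 0.238) and -0.19 for Lamc1 (adjusted p = 0.0799), with a single 4-OHT library left in the fit. Lamb2, the β2 chain, stood at 676, 658 and 683 with vehicle and 781, 593 and 582 with 4-OHT. For Lamb2, 4-OHT replicate 1 lay above and 4-OHT replicates 2 and 3 below every vehicle value. Its difference was -0.06, SE 0.09, adjusted p = 0.637, and without 4-OHT replicate 1 it became -0.20 with an adjusted p of 0.041, whereas without 4-OHT replicates 2 and 3 it was 0.22. Lamb1, the β1 chain, was low in every library at 21.5, 28.4 and 19.4 with vehicle and 49.6, 44.6 and 63.7 with 4-OHT, and rose from 23.1 ± 4.71 to 52.6 ± 9.94 (1.16, SE 0.26, adjusted p = 0.00112). All 3 values of Lamb1 with 4-OHT were above the highest with vehicle. The other 4 laminin chains were not tested. Lama1, the embryonic α1 chain, had 0 reads in all 6 libraries, and Lama2, Lama4 and Lamc3 had 0 to 4 reads a library.

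**Figure D2:**
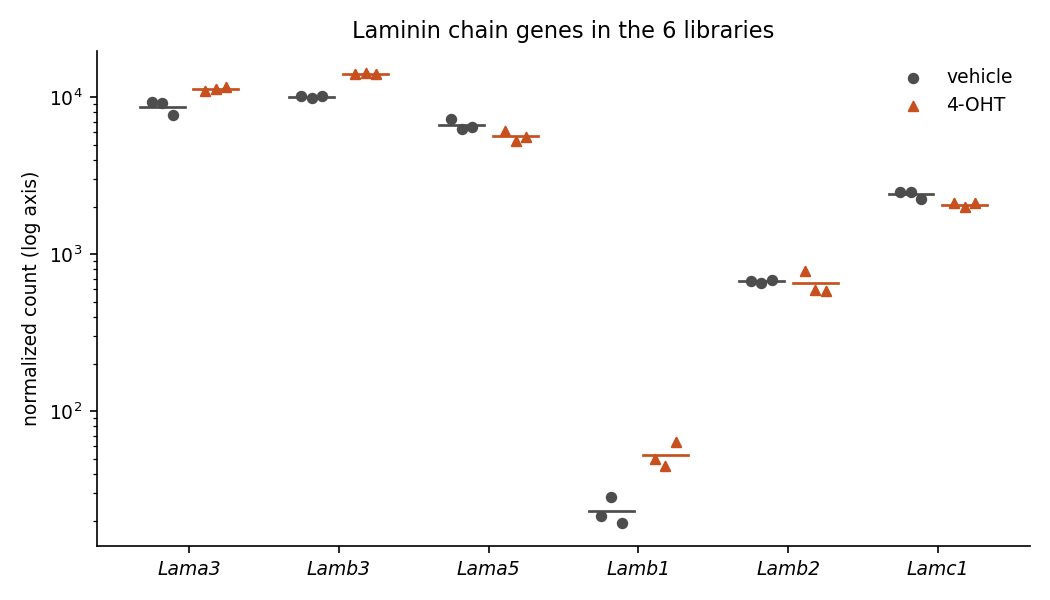
Normalized counts of 6 laminin genes tested, each point a library and each line a group mean (n = 3), on a log axis. Lama3, Lamb3 and Lamb1 are higher in all 3 4-OHT libraries, Lama5 and Lamc1 are lower in all 3, and Lamb2 overlaps.

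The promoters of a chain that rose, Lamb3, and of a chain that fell, Lama5, are shown for the 250 bases before the annotated start, 5′ to 3′ on the gene's strand (RefSeq, GRCm38.p6). Capitals mark matches, on both strands, to the AP-1 motif TGANTCA, the TEAD motif GGAATG or the SP/KLF motif GGGCGG. Over 32851 such windows 6.75%, 12.6% and 32.7% held at least 1 match to these motifs in that order. Lamb3 lies at chr1:193301744-193301993 on the plus strand and Lama5 at chr2:180225860-180226109 on the minus strand.
Lamb3: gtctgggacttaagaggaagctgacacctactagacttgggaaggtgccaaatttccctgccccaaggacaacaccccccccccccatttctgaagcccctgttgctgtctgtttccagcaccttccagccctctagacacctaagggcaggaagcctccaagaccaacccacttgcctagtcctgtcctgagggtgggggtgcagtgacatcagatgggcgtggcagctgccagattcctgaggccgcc
Lama5: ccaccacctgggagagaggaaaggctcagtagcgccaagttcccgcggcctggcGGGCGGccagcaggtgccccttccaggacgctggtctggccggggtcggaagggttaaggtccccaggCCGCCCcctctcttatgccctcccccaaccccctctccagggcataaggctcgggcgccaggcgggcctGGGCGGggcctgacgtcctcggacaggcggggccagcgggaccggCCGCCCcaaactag
The Lamb3 window, 58.8% G and C, held no match to these letters, whereas the Lama5 window, 72.4% G and C, held 4 matches to GGGCGG or its reverse complement, with 190, 122, 53 and 8 bases between match and start. Lamb3 has a further annotated start, whose window held 1 match to GGAATG. A match is a run of letters and not a shown binding site. Of the 37 genes, 23 had an entry in this promoter table.

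Ratios between chains within a library, in which size factors nearly cancel, moved toward Lama3 in the α class and, against Lamb2 though not against Lamb1, toward Lamb3 in the β class. The log2 ratio of Lama3 to Lama5 was 0.36, 0.56 and 0.24 with vehicle and 0.84, 1.11 and 1.07 with 4-OHT, a difference of 0.62, and all 3 values with 4-OHT lay above those with vehicle. The corresponding log2 ratio of Lamb3 to Lamb2 went from 3.91 ± 0.0109 to 4.45 ± 0.236. The log2 ratio of Lamb3 to Lamb1 went down, from 8.73 ± 0.292 to 8.06 ± 0.269, as Lamb1 rose from few reads. The difference of the ratio of Lamb3 to Lamb2 was 0.27 without 4-OHT replicates 2 and 3, in place of 0.54. None of these 3 ratios overlapped between the groups, and each had p = 0.1 (exact permutation test, two-sided), the smallest that 3 libraries against 3 allow. The ratio of Lama3 to Lamb3, the chains that share a trimer, overlapped between the groups (difference -0.10, exact permutation p = 0.4). Across the 15 ratios computed, 12 did not overlap between the groups, 4 of them higher and 8 lower, and the Benjamini-Hochberg adjusted p of each of the 12 was 0.125. Itgb1, Lamb3 and Itgav each enter several of the 15, which are therefore not independent. No share over other gene pairs was computed to set beside this count.

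Shares of a chain class were read in normalized counts per 1000 bases of annotated exon. That scale allows genes to be set beside each other. Each gene is divided by 1 fixed length, so these shares largely restate the ratios above. Lama3 made up 57.7, 60.9 and 55.6% of the summed level of the 5 laminin α chain genes with vehicle and 65.5, 69.5 and 69.0% with 4-OHT. Lamb3 already held 93.1% ± 0.0293 of the 3 β chain genes with vehicle, against 95.0% ± 0.759 with 4-OHT. In both classes the 3 shares with 4-OHT lay above the 3 with vehicle (exact permutation p = 0.1 each). This largely follows from the ratios and is no separate support. With the longest annotated transcript as the length, the mean share went from 58.5% to 68.4% for Lama3.

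**Figure D3:**
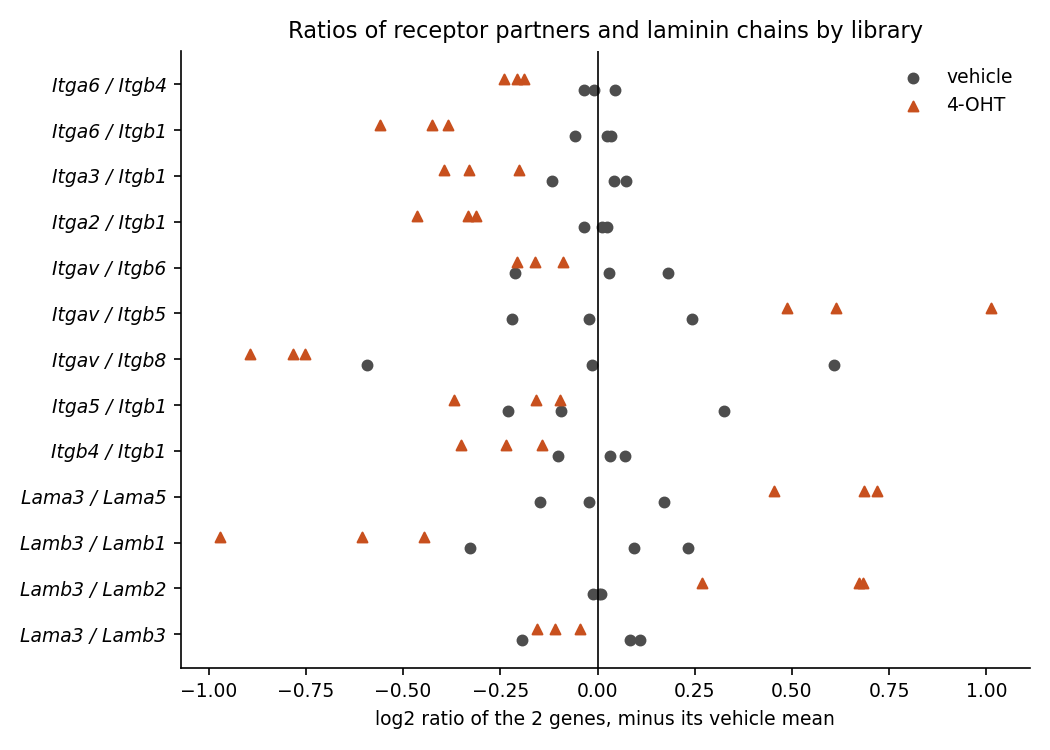
Log2 ratio of the normalized counts of 2 genes in each library, minus the mean ratio of the vehicle libraries, for 13 pairs of receptor subunits and laminin chains, with circles for vehicle and triangles for 4-OHT libraries. The ratio of Lama3 to Lama5 lies higher in all 3 4-OHT libraries, while the ratios of α subunits to Itgb1 lie lower or overlap.

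Both subunits of the hemidesmosome receptor α6β4 rose, Itgb4 by more than Itga6. Itgb4, whose long cytoplasmic tail binds plectin, stood at 17265, 16362 and 16612 in vehicle replicates 1 to 3 and 22218, 21899 and 22745 in 4-OHT replicates 1 to 3, with no overlap (log2 fold change 0.41, SE 0.04, adjusted p = 1.40e-07). Itga6, the laminin-binding subunit that pairs with either Itgb4 or Itgb1, stood at 11527, 11339 and 10888 with vehicle and 12626, 12755 and 13395 with 4-OHT (0.20, SE 0.04, adjusted p = 7.73e-04). Its 3 values with 4-OHT were above every vehicle value, but with quantile normalization the difference was 0.07 (adjusted p = 0.149). The difference of Itgb4 was also smaller with quantile normalization, at 0.31, and still passed (adjusted p = 6.46e-06). The log2 ratio of Itga6 to Itgb4 was -0.58, -0.53 and -0.61 with vehicle and -0.82, -0.78 and -0.76 with 4-OHT, lower in all 3 libraries by 0.21 on the log2 scale. Itgb4 shares exon positions with B230344G16Rik on the opposite strand.

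Itgb1, the β subunit common to most matrix receptors, rose by more than any α subunit that passed. It stood at 11051, 11509 and 10368 in vehicle replicates 1 to 3 and 16075, 18312 and 17541 in 4-OHT replicates 1 to 3, from 10976 ± 575 to 17309 ± 1136 (log2 fold change 0.66, SE 0.05, adjusted p = 4.31e-09). The 3 values with 4-OHT lay far above the 3 with vehicle. Itga3, the α3 subunit of the laminin receptor α3β1, stood at 6823, 6359 and 6542 with vehicle and 8368, 8352 and 8367 with 4-OHT, with nearly equal values in the 3 4-OHT libraries (0.35, SE 0.04, adjusted p = 1.51e-06). Itga2, the collagen-binding α2 subunit, stood at 8521, 8798 and 7667 with vehicle and 9673, 10057 and 10707 with 4-OHT (0.29, SE 0.05, adjusted p = 1.57e-04). The log2 ratio to Itgb1 was lower in all 3 4-OHT libraries for Itga6 (difference -0.46), Itga2 (-0.37) and Itga3 (-0.31), and for Itgb4 (-0.24), each at the smallest exact permutation p of 0.1. Leaving out 4-OHT replicates 2 and 3 gave differences of -0.20 for Itga3 and -0.14 for Itgb4. On the per-length scale Itgb1 made up 49.7, 51.7 and 49.0% of the 8 β subunit genes with vehicle and 53.0, 56.5 and 54.7% with 4-OHT, while Itgb4 made up 45.2, 42.8 and 45.7% and 42.6, 39.3 and 41.3%. These shares did not overlap between the groups in either gene (exact permutation p = 0.1). Itgb1 and Itgb4 together held nearly all of the class, so both shares largely restate the ratio of Itgb4 to Itgb1.

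The promoter of Itgb1, printed because this gene is the shared partner in those ratios, lies at chr8:128685404-128685653 on the plus strand, with capitals as above.
Itgb1: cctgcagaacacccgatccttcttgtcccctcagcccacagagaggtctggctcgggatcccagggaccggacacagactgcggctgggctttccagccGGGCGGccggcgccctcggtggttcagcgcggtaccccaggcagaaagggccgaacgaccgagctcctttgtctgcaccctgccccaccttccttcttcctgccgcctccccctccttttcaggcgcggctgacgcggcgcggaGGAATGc
It is 68% G and C and held 1 match to GGGCGG, with 145 bases between match and start, and 1 match to GGAATG, with 1 base between.

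Itga7, a further laminin-binding α subunit, known mainly from muscle, had the largest fall of the members that passed. It stood at 448, 436 and 322 in vehicle replicates 1 to 3 and 163, 196 and 217 in 4-OHT replicates 1 to 3 (log2 fold change -1.05, SE 0.13, adjusted p = 1.38e-06). All 3 values with 4-OHT were below the lowest vehicle value, and it was the only member to fall past the threshold also without 4-OHT replicates 2 and 3. The smooth muscle markers summed to 4.66, 7.80 and 15.7 in the same vehicle libraries and 14.5, 68.4 and 173 in the 4-OHT libraries, and their part in the values of Itga7 was not tested. Itga7 shares exon positions with Mettl7b on the opposite strand.

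The αv subunit and its partners did not move as a block. Itgav, which pairs with several β subunits, stood at 3275, 3083 and 2426 with vehicle and 3364, 3739.9 and 3694 with 4-OHT, with vehicle replicate 3 well below the other libraries (0.31, SE 0.08, adjusted p = 0.00298). Its groups did not overlap, but the adjusted p was 0.071 with DESeq2. The difference was 0.21 without 4-OHT replicates 2 and 3 (adjusted p = 0.240), and without vehicle replicate 3 the difference was 0.18. Itgav shares exon positions with Gm13684 on the opposite strand. Itgb6, the epithelial partner that activates TGFβ, stood at 1171, 1224 and 1140.4 with vehicle and 1576, 1614 and 1674 with 4-OHT (0.46, SE 0.05, adjusted p = 1.08e-06), with tight groups far apart. Itgb8, another αv partner that activates TGFβ, was low at 26.1, 15.6 and 29.1 with vehicle and 46.5, 56.0 and 50.1 with 4-OHT and rose (1.12, SE 0.27, adjusted p = 0.00224), with a difference of 0.99 and an adjusted p of 0.091 without 4-OHT replicates 2 and 3. Itgb5, the partner in the vitronectin receptor αvβ5, stood at 395, 446 and 403 with vehicle and 342, 348 and 261 with 4-OHT and was the β subunit that fell (-0.40, SE 0.11, adjusted p = 0.00469). Its difference was -0.28 without 4-OHT replicates 2 and 3 (adjusted p = 0.106), and without 4-OHT replicate 3 alone it was -0.26. The log2 ratio of Itgav to Itgb5 went from 2.81 ± 0.232 to 3.51 ± 0.274 and that of Itgav to Itgb8 from 6.93 ± 0.601 to 6.12 ± 0.0735, both with no overlap (exact permutation p = 0.1). The difference of the ratio of Itgav to Itgb8, -0.81, was -0.51 without vehicle replicate 2. The ratio of Itgav to Itgb6 overlapped (difference -0.15, exact permutation p = 0.4).

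Itga5, the α subunit of the fibronectin receptor α5β1, stood at 203, 158 and 129.5 with vehicle and 183, 242 and 241 with 4-OHT, and 4-OHT replicate 1 lay below vehicle replicate 1. It passed the threshold (0.45, SE 0.15, adjusted p = 0.021), but the call was lost with any of 4 libraries left out. The difference was 0.44 without vehicle replicate 2 (adjusted p = 0.052), 0.29 without vehicle replicate 3 (0.137), and 0.38 without 4-OHT replicate 2 (0.090) or 4-OHT replicate 3 (0.089). Without both of these 4-OHT libraries it was 0.18 (adjusted p = 0.593). The log2 ratio of Itga5 to Itgb1 overlapped between the groups (difference -0.21, exact permutation p = 0.4).

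**Figure D4:**
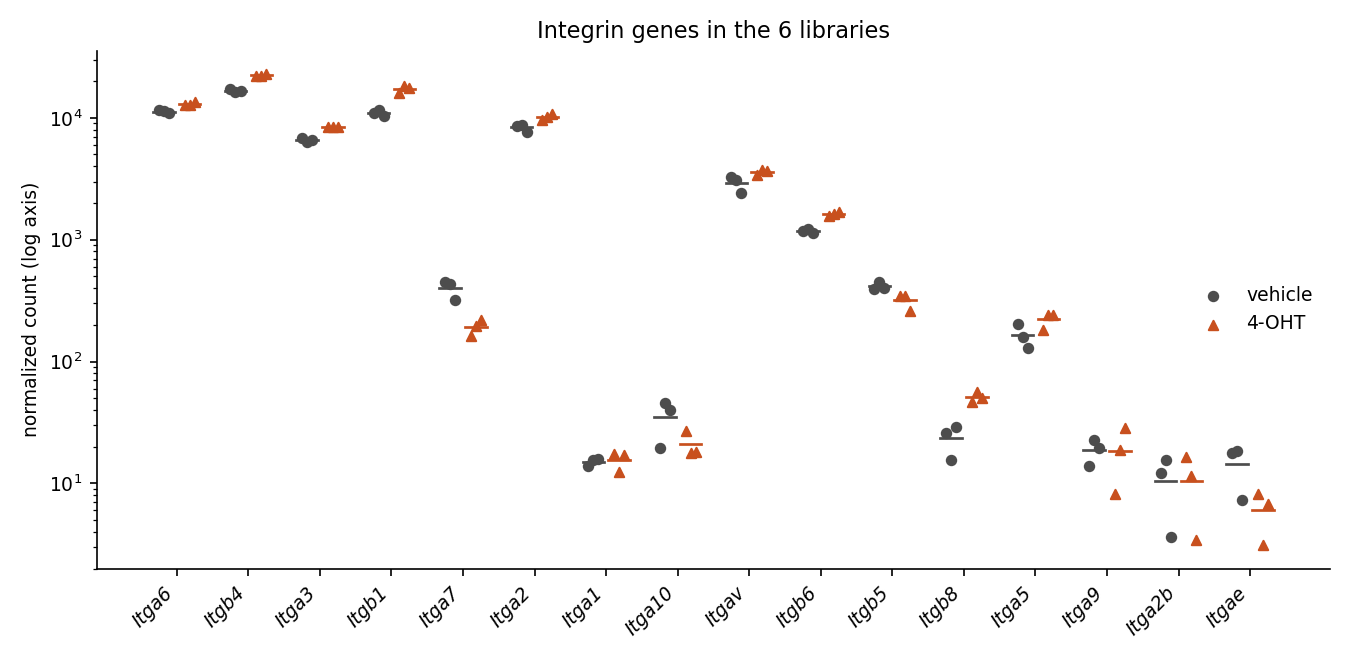
Normalized counts of the integrin genes tested, each point a library and each line a group mean (n = 3), on a log axis. Itgb4 and Itgb1 are higher in all 3 4-OHT libraries, Itga7 and Itgb5 are lower in all 3, and the genes under about 50 counts mostly overlap, apart from Itgb8.

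The remaining 5 integrin genes tested had few reads and did not pass. Itga1, a collagen-binding subunit, stood at 14.0, 15.6 and 15.7 with vehicle and 17.6, 12.4 and 17.1 with 4-OHT (0.04, SE 0.35, adjusted p = 0.943). Itga10, a collagen-binding subunit of cartilage, stood at 19.6, 45.4 and 40.0 with vehicle and 26.9, 17.6 and 18.2 with 4-OHT (-0.66, SE 0.33, adjusted p = 0.115), and passed without vehicle replicate 1 (-1.02, adjusted p = 0.018). Itga9, which binds tenascin and other ligands, stood at 14.0, 22.7 and 19.4 with vehicle and 8.26, 18.7 and 28.5 with 4-OHT (-0.14, SE 0.41, adjusted p = 0.801). Itga2b, the platelet subunit, stood at 12.1, 15.6 and 3.63 with vehicle and 16.5, 11.4 and 3.42 with 4-OHT (-0.02, SE 0.58, adjusted p = 0.978). In these 4 genes the groups overlapped, and the values of Itga2b and Itga9 spread more within a group than between the groups. Itgae, the αE subunit by which intraepithelial lymphocytes bind E-cadherin, stood at 17.7, 18.4 and 7.26 with vehicle and 8.26, 3.11 and 6.83 with 4-OHT (-1.11, SE 0.51, adjusted p = 0.085), and passed with edgeR (adjusted p = 0.034) and without vehicle replicate 3 (0.032). Itgae reached the level for testing through the vehicle libraries alone, which fixed its direction. Itga1 and Itga10 share exon positions with Gm49395 and Gm42957 on the same strand.

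Integrin genes of leukocytes, platelets and mesenchyme made up the 10 integrin genes below the level for testing. Itgb2, the β2 subunit of leukocytes, had 2, 1 and 0 reads with vehicle and 0, 2 and 4 with 4-OHT. Its partners Itgal, Itgam, Itgax and Itgad had at most 4 reads in any library. Itgb7, which pairs with Itga4 or Itgae in gut lymphocytes, had 0 to 9 reads. Itga4 had 3 reads in 4-OHT replicate 3 and 0 in the others. Itgb3, the platelet and endothelial β3 subunit, had 0 to 3 reads, Itga11 had 0 to 2, and Itga8 had 0 in all 6 libraries. A count of 0 allows up to 3 reads in a library, counting error only, so these genes were at or near the limit of detection and no difference could be read at this depth.

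The order of the members by level, as normalized counts per 1000 bases of annotated exon in the vehicle libraries, began with both main β subunits. Itgb1 stood at 2689.6 ± 141 and Itgb4 at 2387 ± 66.5, without overlap. Of the laminin chains named here, Lamb3 (1529.8 ± 20.3) stood highest. Itga6 (1247 ± 36.4), Itga2 (1168 ± 82.7) and Itga3 (1151 ± 40.9) were lower than Lamb3, and each overlapped its neighbour. Below them came Lama3 (813 ± 86.9), Lama5 (585 ± 43.5), then Lamc1 (292 ± 17.9) and Itgav (273 ± 41.4), which overlapped. Itgb6 (166 ± 5.98) was followed by Itgb5 (117 ± 7.78) and Lamb2 (111 ± 2.09), which overlapped, and by Itga7 (49.7 ± 8.57) and Itga5 (33.2 ± 7.55), which also overlapped. The other 7 genes tested were under 7 on this scale. With 4-OHT Itgb1, Itgb4 and Lamb3 kept this order, at 4241, 3177 and 2139, and Itga3 at 1465 stood above Itga6 at 1432 and Itga2 at 1422. Some places depended on the length used. With the longest transcript the vehicle level of Itga6 was 2611, just under that of Itgb4. On that length Itga3 at 1353 stood above Itga2 at 1172, and Itgav at 415 above Lamc1 at 317.

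Other ligands of integrins, a list of 21 genes of which 19 were in the table and 12 tested, had all 12 higher with 4-OHT past the threshold, beside 22.7% of all rows tested. Tnc and Col3a1 reached the level for testing through the 4-OHT libraries alone, which fixed their direction. The other 10 all rose, with a median log2 fold change of 0.82, against 1.22 with both included. Cdh1, which is also among the epithelial markers above, is counted in these 10. Fn1, fibronectin, the ligand of α5β1 and of the αv receptors, stood at 6709, 6889 and 7354 in vehicle replicates 1 to 3 and 19092, 17832 and 21453 in 4-OHT replicates 1 to 3 (log2 fold change 1.47, SE 0.06, adjusted p = 3.87e-13). Thbs1, thrombospondin 1, stood at 323, 376 and 399.5 with vehicle and 1105, 914 and 1046 with 4-OHT (1.48, SE 0.09, adjusted p = 9.10e-11). Tnc, tenascin C, was low at 5.60, 3.55 and 2.42 with vehicle and 20.7, 12.4 and 26.2 with 4-OHT (2.09, SE 0.49, adjusted p = 0.00162). All 3 of these genes were higher in every 4-OHT library. Col3a1, named outside the rule for its spread and as a fibroblast marker, had 0 reads in the vehicle libraries and 0, 6 and 100 with 4-OHT, so that most of its reads lay in 4-OHT replicate 3. Without vehicle replicate 2, 9 of the list rose, and without 4-OHT replicates 2 and 3, 10 rose.

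Of the 20 other basement membrane genes, 14 were tested, 8 rose, 3 fell and 3 did not pass, with a median of 0.26, where 22.7% of all rows tested rose and 21% fell. Npnt, nephronectin, a ligand of α8β1, stood at 501, 572 and 539.9 with vehicle and 1258, 1263 and 1305 with 4-OHT (1.25, SE 0.07, adjusted p = 2.37e-11), while its receptor subunit Itga8 had no reads. Ntn4, netrin 4, which binds laminin γ1 chains, stood at 26.1, 12.1 and 23.0 with vehicle and 58.9, 42.5 and 60.3 with 4-OHT (1.41, SE 0.30, adjusted p = 6.44e-04). Col7a1, the anchoring fibril collagen, stood at 27.1, 39.0 and 43.6 with vehicle and 67.2, 67.4 and 69.4 with 4-OHT (0.90, SE 0.22, adjusted p = 0.00249). The groups did not overlap in these 3 genes. The type IV collagen genes Col4a1 and Col4a2, agrin (Agrn), Col18a1 and Tinagl1 also rose, and perlecan (Hspg2), Smoc2 and Fbln1 fell.

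Of the 8 hemidesmosome partners and further laminin receptors, 7 were tested, 1 rose, 3 fell and 3 did not pass, with a median of -0.01. The 4 called of 7 are to be read beside the 43.6% called over all rows tested. Cd151, the tetraspanin that associates with α3β1 and α6β4, stood at 2850.2, 3052 and 3151 with vehicle and 4328, 4348 and 4462 with 4-OHT (0.54, SE 0.05, adjusted p = 2.30e-08). Eppk1, epiplakin, stood at 489.8, 383 and 495 with vehicle and 316, 219.7 and 313 with 4-OHT (-0.70, SE 0.13, adjusted p = 1.55e-04), and Dag1, dystroglycan, a laminin receptor that is no integrin, stood at 5374, 5412 and 5129 with vehicle and 4744, 4389 and 4606 with 4-OHT (-0.21, SE 0.05, adjusted p = 7.54e-04). Plec, plectin, which ties Itgb4 to keratin, overlapped between the groups at 16983, 16681 and 15360.3 with vehicle and 14935, 14307 and 15516 with 4-OHT and passed as lower (-0.13, SE 0.05, adjusted p = 0.03). Dst, Bcam and Rpsa did not pass, and Col17a1, a transmembrane collagen of skin hemidesmosomes, was below the level for testing. Without 4-OHT replicates 2 and 3, 1 of these genes fell, and without vehicle replicate 2, 2 rose.

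Of the 49 genes listed as cytoplasmic adhesome, some of which link integrin tails to actin, 48 were in the table and 40 tested. Of these 40, 20 rose, 6 fell and 14 did not pass, with a median of 0.18. Over all rows tested, 22.7% rose and 21% fell. Zyx, zyxin, stood at 2387, 2382 and 2336 with vehicle and 4287, 4125 and 4257 with 4-OHT (0.83, SE 0.04, adjusted p = 2.86e-11). Fblim1, migfilin, stood at 876, 847 and 926 with vehicle and 1361, 1510.2 and 1368 with 4-OHT (0.68, SE 0.06, adjusted p = 3.46e-08). Fermt2, kindlin 2, an activator of integrin β tails, was low at 15.9, 10.6 and 7.26 with vehicle and 42.4, 35.2 and 36.4 with 4-OHT (1.73, SE 0.34, adjusted p = 3.03e-04). The groups did not overlap in these 3 genes. Ilk, integrin-linked kinase, had 0, 2 and 0 reads with vehicle and 1, 3 and 0 with 4-OHT, and its exons overlap those of Taf10 and Rrp8 on the opposite strand, so that its counts are uncertain. Without 4-OHT replicates 2 and 3, 2 of the adhesome genes fell.

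**Figure D5:**
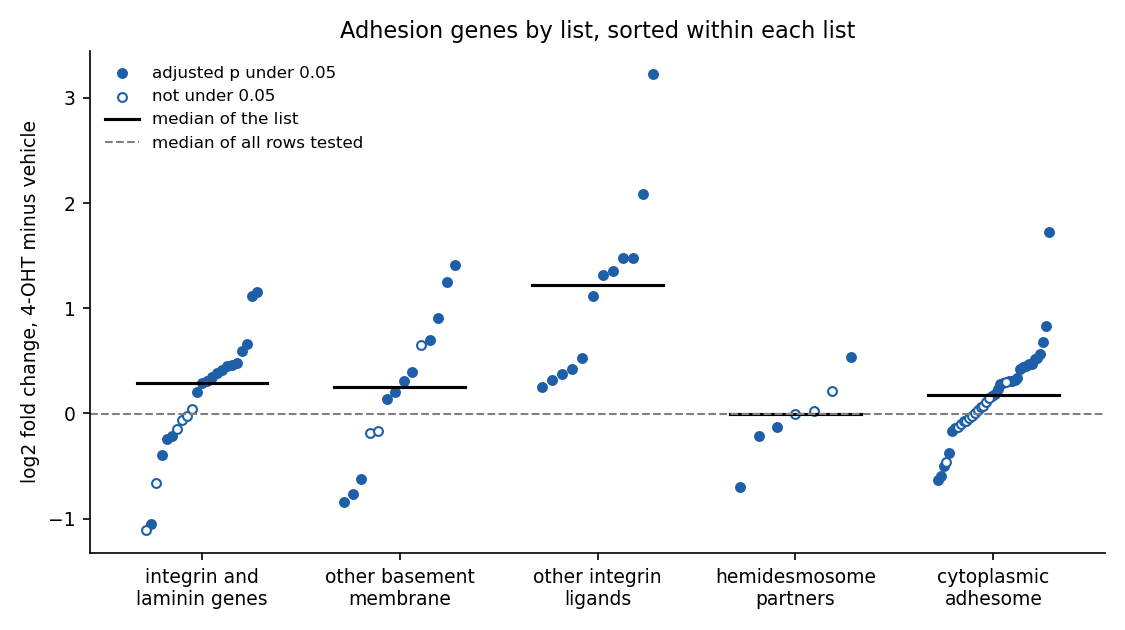
Log2 fold change (4-OHT over vehicle) of each gene tested in the integrin and laminin set and in the 4 lists of related genes, each point a gene, filled where the adjusted p was under 0.05, with a solid line at the list median and a dashed line at the median of all rows tested. The medians are 0.29 for the integrin and laminin genes, -0.01 for hemidesmosome partners, 0.26 for basement membrane genes and 0.18 for adhesome genes. That of the other ligands is 1.22, or 0.82 without Tnc and Col3a1, which reached the level for testing through the 4-OHT libraries alone.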

How the data were processed

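RNA sequencing of 3 vehicle and 3 4-OHT colon organoid libraries was used. The authors deposited 1 table of normalized counts, a signal that is reads divided by 1 size factor a library. The labels' processing notes name STAR, DESeq2 and GRCm39 (mm39), with no versions, and the annotation, the counter and the use of strand are not given in the sources used here. Each value was divided by its library's smallest step, which gave whole reads, within 0.1 reads, for 100% of values, and totals of 15804709 to 26957612 reads, so that 3 reads is the floor a count of 0 allows. Groups came from the labels.

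The test was limma 3.58.1 (trend, R 4.3.3), two-sided, on log2(normalized count + 1) for the 13210 rows with a mean of at least 10, with Benjamini-Hochberg adjustment over all of them and a threshold of 0.05. A fold change on that scale understates the change of low genes. It called 5765 rows; edgeR 4.0.16 on the recovered reads called 5780 and DESeq2 1.42.0 called 5208. The script recovered known changes on simulated data, in which fewer rows changed, and by more than most members did here. That check does not cover smaller changes. Log2 ratios of 15 gene pairs were tested by exact permutation over libraries (SciPy 1.17.1). Lengths were unions of annotated exons in GENCODE (GRCm38), used for levels only. No 2 libraries were copies.

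The members, the pathway and marker lists and the tests were chosen with earlier results of these data known. Every member tested was named except 1, which counts in the totals and, like 1 gene of the protease list, is not reported here. Of each pathway list, the 3 genes with the largest change among those past the threshold with groups that did not overlap were named, and other genes were named after their values were seen. Alternatives were other pseudocounts, filters, scalings and tools, a replicate block, and leaving out libraries. A fit that leaves out 4-OHT replicates 2 and 3 has 1 4-OHT library, assumed to vary like the vehicle libraries.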

Additional observations from a re-analysis of the deposited data

How the results depend on the processing

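Most member results kept their direction and their side of the threshold. Of 361 values computed for the 23 genes tested under the alternatives, 332 did, 13 reversed in Itga1, Itga2b, Itga9 and Lamb2, none of which passed, 12 in Itga5, Itga6, Itgav, Itgb5, Itgb8, Lama5 and Lamc1 no longer passed, and 4 in Itga10, Itgae and Lamb2 newly passed. Leaving out each library in turn gave 4939 to 5630 genes changed, 12 to 13 members higher and 4 to 5 lower, 1 to 2 hemidesmosome partners higher, 2 to 4 proteases and inhibitors lower, and a member median of 0.18 to 0.33. The same runs gave log2 fold changes of -0.046 to 0.19 for Itga1, -0.58 to 0.56 for Itga2b, -0.52 to 0.31 for Itga9 and -0.20 to 0.017 for Lamb2. Without 4-OHT replicates 2 and 3, a fit chosen for the marker levels of those libraries, 3569 genes changed, 1858 higher and 1711 lower. That fit gave 1 member, 2 adhesome genes, 1 hemidesmosome partner and 2 proteases lower, a member median of 0.22, and 0.81 for Itga2b and 0.22 for Lamb2. With quantile normalization 2 hemidesmosome partners rose, the member median was 0.19 and Itga2b stood at 0.014. With no filter the member median was 0.15, over 35 members. The cause was not tested for the scalings. Fewer samples or more low genes enter by construction in the others. A replicate block, for libraries of the same number, gave 5637 genes changed. Deviations of same-numbered libraries correlated at -0.01, 0.03 and -0.02, so the numbers were not taken as pairs, and nothing in the labels says they share a culture. Depth limits the genes under about 50 counts, where the SE of a log2 fold change was 0.26 to 0.58.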

Other observations

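A list of 32 matrix proteases and their inhibitors, written after the values of the integrin and laminin genes had been seen, was read in the same fit. Of 23 tested, 10 rose, 4 fell and 9 did not pass, with a median log2 fold change of 0.41. Adam12, which rose, and Adamts1, which did not pass, reached the level for testing through the 4-OHT libraries alone, and the other 21 had a median of 0.37. These counts stand beside 22.7% of all rows tested that rose and 21% that fell. Plau, the urokinase that generates plasmin at the cell surface, stood at 121, 135 and 121 with vehicle and 364, 371 and 405 with 4-OHT (log2 fold change 1.59, SE 0.11, adjusted p = 7.32e-10, n = 3 libraries a group). Its receptor Plaur stood at 3428, 3367 and 2942 with vehicle and 4057, 4674 and 4197 with 4-OHT (0.41, SE 0.06, adjusted p = 1.44e-05), and the related activator Plat at 467, 484 and 425 with vehicle and 674, 829 and 799 with 4-OHT (0.74, SE 0.08, adjusted p = 6.08e-07). The groups did not overlap in any of these 3 genes, which were higher with 4-OHT. Of the membrane-type metalloproteinases, Mmp15 stood at 5244, 5119 and 5024 with vehicle and 9614, 9754 and 9622 with 4-OHT (0.91, SE 0.04, adjusted p = 3.39e-12) and Mmp14 at 2409, 2313 and 2454 with vehicle and 3242, 3451 and 3462 with 4-OHT (0.50, SE 0.05, adjusted p = 6.89e-08). Both were higher in every 4-OHT library. Mmp7, matrilysin, stood at 628, 682 and 568 with vehicle and 512, 539 and 487 with 4-OHT and fell (-0.28, SE 0.08, adjusted p = 0.0066). Bmp1, a procollagen C-proteinase, stood at 97.0, 86.5 and 56.9 with vehicle and 133, 122 and 140.0 with 4-OHT (0.74, SE 0.18, adjusted p = 0.00229). Timp2 (0.68, SE 0.07, adjusted p = 3.33e-07) and Serpinb5 (0.62, SE 0.05, adjusted p = 5.92e-09), listed as inhibitors, also rose. Timp1 and Timp3 did not pass. Adam17 (-0.15, adjusted p = 0.0335) and Hpse (-0.39, adjusted p = 0.00213) were, with Mmp7, among the 4 genes that fell. These values are transcript levels, and no protease activity was measured.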
